A study of Mus musculus with 10 samples.

Results

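The genes that build, cut, bundle and anchor actin filaments were followed in mouse platelets of 2 ages. They are 46 genes of the 53819 gene symbols in the count tables, chosen by symbol, with earlier results of these data known. Included are the Arp2/3 complex, its activators, a formin, capping and severing proteins, cofilin-related genes and coronins. The others are the Ena/VASP family, crosslinkers, the ezrin-radixin-moesin (ERM) family and focal adhesion genes. The 2 groups are platelet mRNA of mice labelled P7, taken to mean postnatal day 7 (libraries A, B, C, E and I), and of adult mice (libraries A, B, C, G and H), so each age has 5 libraries. Neither group carries a stated mutation or treatment, and strain, sex, the age of the adults and any pooling of animals are unstated. P-values therefore measure only the spread between these libraries, which may be technical.

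Platelets are anucleate fragments of megakaryocytes and keep RNA from that parent cell. On activation a platelet rounds up, extends filopodia and lamellipodia and spreads, and each step is driven by actin. The Arp2/3 complex starts branched filaments, formins and Ena/VASP proteins lengthen unbranched ones, capping protein stops growth, and gelsolin and the cofilin family cut and recycle old filaments. Crosslinkers such as filamin and alpha-actinin hold filaments together, and focal adhesion proteins tie them to integrins.

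Levels are CPM, the counts of a gene scaled to the size of its library with TMM factors, and fold changes are P7 over adult on the log2 scale with their standard error (SE). A gene is called higher or lower where edgeR's quasi-likelihood test gave an adjusted p under 0.05 over all 8198 genes tested. The P7 libraries totalled 19431863 to 25029931 counts and the adult libraries 19541997 to 23291269, and a count of 0 (3 counts taken as the limit) allows up to 0.120 to 0.154 CPM. Platelet markers were present, with 15 of 15 tested and summed levels of 64550 to 88881 CPM at P7 and, in adults, 63445 to 94913 CPM. Single platelet markers did differ, with 5 higher and 4 lower at P7 (60%, beside 27.7% of all tested genes). Ptprc, the pan-leukocyte surface gene for CD45, lay between 0.183 and 1.09 CPM at P7 and between 0.286 and 0.918 CPM in adults. It is 1 of 10 pan-leukocyte markers and does not show equal leukocyte RNA at the 2 ages. Of the 8 tested, Cd37 and Ptpn6 were higher at P7 and 0 were lower, and markers of each cell type are given further below. No pair of libraries held identical values.

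Each of the 46 genes passed the filter on low counts and was tested. At P7, 13 were higher and 6 were lower than in adults, and 27 did not pass. The 19 called genes are 41.3% of the 46, where 27.7% of all tested genes were called. By direction, the 13 higher genes are 28.3% of the 46 beside 13.8% of all tested genes, and the 6 lower genes are 13% beside 13.9%. Abundant genes were called more often. In a test limited to genes averaging 10 CPM or more, 1211 of 2802 were called, 568 of them higher. Of the 46, 39 were kept there, with 13 higher and 5 lower. The 27.7% includes scarcer genes, so it does not show more calls among the 46 than among equally abundant genes. The median log2 fold change was 0.16 over the 46 genes and 0.05 over all tested genes. In 14 genes the P7 and adult libraries did not overlap, with P7 above in 9 and below in 5. Over all tested genes, 19.8% did not overlap, with P7 above in 10.1% and below in 9.76%. In platelet RNA, fewer cells of a type and less RNA per cell cannot be told apart, and levels are shares of each library.

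The split between directions moved with the scaling. With library size or upper-quartile scaling, 14 of the 46 were higher and 3 lower, and these scalings moved the median of all tested genes to 0.11. They called 2235 and 2261 of the 8198 genes, 1235 and 1241 of them higher. With the trend of fold change on GC content removed, 9 of the 46 were higher and 9 lower. Calls over all 8198 genes moved as well, to 2096 with 853 higher, from 2272 with 1132 higher in the main fit. Fold change and transcript GC content had a Spearman correlation of 0.27 over 8030 genes, and genes are no independent replicates. Median GC content was 55.3% for genes higher at P7, 42.5% for genes lower and 51.4% for the rest. Library size and upper-quartile scaling ended the calls of Arpc5, Capza2 and Lasp1. Without the filter on low counts, over 20865 genes, those of Hcls1, Cttn, Capza2, Vcl and Lasp1 were lost, and limma-voom ended that of Vcl. Of the 19 calls, 8 held under each of the other settings in which the gene was tested: Actr2, Capzb, Dstn, Cotl1, Coro1a, Evl, Enah and Zyx.

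**Figure D1:**
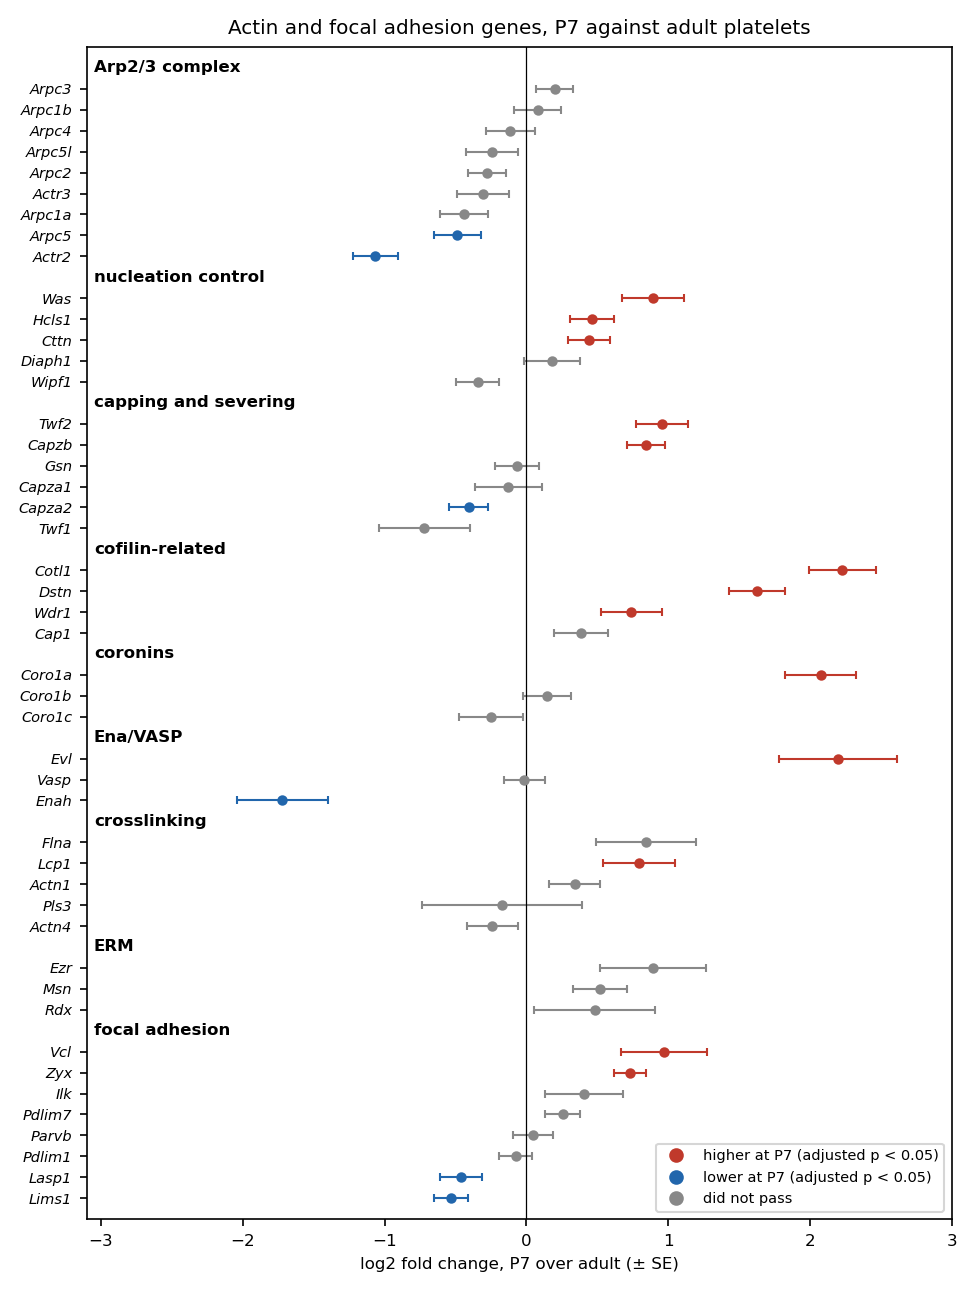
Log2 fold change (P7 over adult, bars are SE) of the 46 genes by subgroup, coloured by call. Cotl1, Evl and Coro1a lie farthest to the right, at 2.23, 2.20 and 2.08, and Enah and Actr2 farthest to the left, at -1.72 and -1.07.

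**Figure D2:**
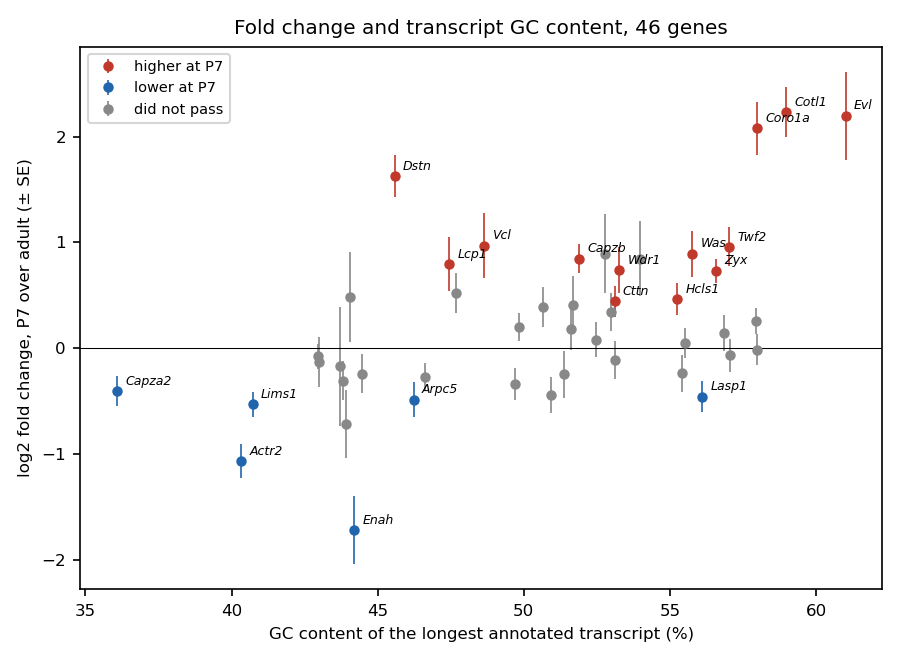
Log2 fold change (P7 over adult, bars are SE) of the 46 genes against the GC content of their longest annotated transcript in percent, coloured by call. Capza2, called lower, has a GC content of 36.1%, and Evl, called higher, has 61.0%.

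Short DNA motifs were searched in the 250 bases before each gene's start, in RefSeq promoters of GRCm38.p6. Members matched by symbol numbered 40 of 46, with 53 promoters, and Twf2, Arpc5l, Cotl1, Coro1b, Cttn and Diaph1 had no entry. The motifs, on both strands, were the CArG box, bound by serum response factor, CCGGAA, the core of sites bound by the ETS family that includes Fli1, and AGATAA, a form of the GATA site. The CArG box was found in 2 of the 53 promoters, those of Arpc4 and Vcl (3.77%, beside 1.47% of all 32851 promoters). CCGGAA was found in 15 of the 53 (28.3%, beside 12% of all), which belong to 14 genes, and AGATAA in 2 of the 53 (3.77%, beside 9.99%). The AGATAA promoters were those of Capza2 and Lims1. Of the called genes, 10 higher and 6 lower ones had a promoter in the table, and CCGGAA lay before 3 of the higher and 2 of the lower ones. A match describes these letters only.

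The stretches below, 100 bases each and written 5′ to 3′ on the strand of the gene, show each called gene with a CArG box (Vcl) or CCGGAA (the others), with the match in capitals (TTCCGG is CCGGAA read from the other strand). They place the match at 227 bases before the start for Vcl, 198 for Capzb, 10 for Coro1a, 133 for Wdr1 (which has another at 9), 124 for Actr2 and 248 for Lims1.
Vcl, chr14:20929148-20929247, plus strand: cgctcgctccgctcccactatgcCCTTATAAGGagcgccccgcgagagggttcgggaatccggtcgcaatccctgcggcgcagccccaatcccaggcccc
Capzb, chr4:139193866-139193965, plus strand: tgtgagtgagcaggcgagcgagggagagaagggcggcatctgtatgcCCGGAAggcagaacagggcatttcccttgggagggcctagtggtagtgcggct
Coro1a, chr7:126704221-126704320, minus strand: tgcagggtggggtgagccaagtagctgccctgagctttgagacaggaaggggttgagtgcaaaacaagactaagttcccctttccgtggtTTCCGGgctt
Wdr1, chr5:38561780-38561879, minus strand: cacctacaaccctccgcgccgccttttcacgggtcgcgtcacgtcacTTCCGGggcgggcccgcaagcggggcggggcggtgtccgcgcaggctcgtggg
Actr2, chr11:20113023-20113122, minus strand: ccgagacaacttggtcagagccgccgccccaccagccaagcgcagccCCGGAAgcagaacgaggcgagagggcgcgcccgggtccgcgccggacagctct
Lims1, chr10:58323297-58323396, plus strand: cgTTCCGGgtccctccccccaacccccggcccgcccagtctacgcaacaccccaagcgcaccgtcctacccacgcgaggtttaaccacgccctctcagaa

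In the Arp2/3 complex, which starts actin branches, 2 of 9 genes were lower at P7, Actr2 and Arpc5, none was higher, and the median was -0.27. Actr2 encodes Arp2, which with Arp3 forms the seed of a new branch. It measured 37.1, 38.1, 29.4, 41.2 and 42.5 CPM in the P7 libraries and 76.9, 89.6, 90.9, 65.2 and 71.3 CPM in the adult libraries, in the order given above. Every P7 library lay below every adult one. The level was 2.09-fold higher in adults (log2 fold change -1.07 ± 0.16, SE, adjusted p = 0.000275). Its partner Actr3, which encodes Arp3, measured 236, 192, 191, 157 and 261 CPM at P7, against 223, 354, 201, 220 and 285 CPM in adults. These ranges overlapped, and Actr3 did not pass (-0.31 ± 0.18, adjusted p = 0.24). The Actr2 to Actr3 ratio within a library, which does not depend on scaling, was -2.45 at P7 and -1.68 in adults on the log2 scale. It differed by -0.77 ± 0.22 (SE, two-sided exact permutation p = 0.0238, adjusted over 19 paralogue pairs 0.0452). This call was lost, at adjusted p up to 0.0754, without P7 A, B, C or I or without adult A, C or G. 

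Arpc5, a small subunit of the complex, measured 305, 314, 379, 277 and 258 CPM at P7, against 509, 543, 414, 347 and 334 CPM in adults. Adult G and H lay within the P7 range, while adult A, B and C lay above it. Arpc5 was 1.40-fold higher in adults (-0.49 ± 0.17, adjusted p = 0.0399), and the call was lost without P7 A, B, E or I or adult A, B or C (adjusted p up to 0.0914). Its paralogue Arpc5l averaged 9.62 ± 0.619 CPM at P7 and, in adults, 11.4 ± 1.97 CPM (SD) and did not pass (-0.24 ± 0.18). The Arpc5 to Arpc5l ratio did not differ past the threshold (-0.25 ± 0.13, adjusted permutation p = 0.151). The other subunits did not pass: Arpc1a (-0.44 ± 0.17, adjusted p = 0.067), Arpc1b (0.08 ± 0.17), Arpc2 (-0.27 ± 0.13), Arpc3 (0.20 ± 0.13) and Arpc4 (-0.11 ± 0.18). Arpc1a passed as lower once the GC trend was removed (-0.63, adjusted p = 0.015). Of the 46 genes, 16 share annotated exon bases with another gene, and 3 share at least 20% with one. Among them, Arpc1b shares 931 of its 3117 annotated exon bases with Pdap1 on the opposite strand, and the strand setting of the counting is not stated.

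Per kilobase of annotated exon, subunits of this complex spanned a wide range although the proteins assemble together. Arpc2 held 540 CPM per kb at P7 and 653 in adults, and Arpc1a held 288 and 391. Actr3 held 78.5 and 97.0 CPM per kb, Actr2 held 10.4 and 21.7, and Arpc5l held the lowest level, 7.19 and 8.50. Actr2 was thus among the scarcest of the 9 transcripts per length at both ages.

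Among the activators and stabilisers of branches and the formin gene Diaph1, 3 of 5 genes were higher at P7 (Was, Hcls1 and Cttn). None was lower, and the median was 0.44. Was encodes WASP, which switches on the Arp2/3 complex in blood cells. It measured 24.3, 39.1, 42.2, 44.6 and 25.4 CPM at P7, against 22.3, 22.0, 20.1, 15.6 and 14.4 CPM in adults. The groups did not overlap, with P7 A and I close to the adult range. The log2 fold change was 0.89 ± 0.22 (adjusted p = 0.0069), and 0.54 with the GC trend removed, where the call was lost (adjusted p = 0.076). Wipf1, which encodes the partner that stabilises WASP, averaged 31.9 ± 3.41 CPM at P7 and, in adults, 40.4 ± 4.10 CPM (SD) and did not pass (-0.34 ± 0.15, adjusted p = 0.106). Removal of the GC trend made Wipf1 pass as lower (-0.48).

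Cttn encodes cortactin, which binds and stabilises branches, and Hcls1 encodes its blood-cell paralogue HS1. Cttn measured 142, 131, 160, 128 and 139 CPM at P7, against 102, 115, 85.9, 125 and 86.8 CPM in adults, without overlap. Hcls1 measured 52.5, 66.2, 61.3, 65.0 and 48.0 CPM at P7, against 42.7, 39.3, 49.9, 39.6 and 41.0 CPM in adults, where adult C exceeded P7 I. The fold changes were close, at 0.44 ± 0.15 for Cttn (adjusted p = 0.0369) and 0.46 ± 0.15 for Hcls1 (adjusted p = 0.0339). The ratio of Hcls1 to Cttn differed by 0.00 ± 0.20 (adjusted permutation p = 0.992). Both calls were lost without P7 A, B, C or E, and without adult A or H. Cttn also lost it without adult C, and Hcls1 without adult B or G (adjusted p up to 0.0922 and 0.0959). Their values after removal of the GC trend were 0.20 and 0.14, and neither passed. Diaph1, a formin that lengthens straight filaments, did not pass (0.18 ± 0.20).

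Capping and severing genes moved in both directions, with 2 of 6 higher, 1 lower and a median of -0.10. Capping protein is a dimer of an alpha subunit, Capza1 or Capza2, with the beta subunit Capzb. Capzb measured 1337, 1589, 1681, 1209 and 1340 CPM at P7, against 894, 899, 757, 670 and 758 CPM in adults. Every P7 library lay above every adult one, by 1.80-fold on the means (log2 fold change 0.85 ± 0.13, adjusted p = 0.000414). Capza2 measured 418, 479, 411, 350 and 468 CPM at P7, against 626, 671, 514, 514 and 491 CPM in adults. It lay below adults in every P7 library (-0.41 ± 0.14, adjusted p = 0.0402). That call was lost without P7 A, C or E or adult A or B (adjusted p up to 0.0894). After removal of the GC trend the Capza2 value was 0.010, with no call, while Capzb was 0.62 and kept its call. Capza1 measured 63.4, 60.5, 75.7, 48.7 and 36.5 CPM at P7, against 68.4, 63.4, 92.3, 44.1 and 42.9 CPM in adults. It did not pass (-0.13 ± 0.24), nor did its ratio to Capza2 (0.29 ± 0.29, adjusted permutation p = 0.431). Capzb was thus higher at P7 under each setting run. The lower call of Capza2 depended on the treatment of GC content, and also on the scaling, the filter on low counts and the libraries used.

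Twinfilins bind actin monomers and capping protein. Twf2 measured 64.4, 79.0, 97.0, 78.5 and 61.2 CPM at P7, against 46.2, 49.7, 34.0, 34.5 and 31.2 CPM in adults, without overlap. It was 1.94-fold higher at P7 (0.96 ± 0.18, adjusted p = 0.00156). After removal of the GC trend its log2 fold change was 0.55, still called. Twf1 measured 160, 189, 175, 268 and 402 CPM at P7, against 358, 442, 621, 173 and 371 CPM in adults. The low adult G and the high P7 I crossed the groups, and Twf1 did not pass (-0.72 ± 0.32, adjusted p = 0.117). It passed as lower without P7 I (-0.995, adjusted p = 0.0246) or without adult G (-0.93, adjusted p = 0.0191). The log2 ratio of Twf1 to Twf2 averaged 1.58 at P7 and 3.24 in adults, a difference of -1.66 ± 0.45 (exact permutation p = 0.0159, adjusted 0.0335). The ratio lost its call without P7 A, B or C or adult A or C (adjusted p up to 0.0670). Gsn, which encodes the severing protein gelsolin, averaged 2879 ± 504 CPM at P7 and, in adults, 3016 ± 561 CPM (SD) and did not pass (-0.07 ± 0.15). It passed as lower with the GC trend removed (-0.47, adjusted p = 0.025).

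Of 4 genes of filament turnover around cofilin, 3 were higher at P7 (Dstn, Wdr1 and Cotl1) and none was lower, with a median of 1.18. Dstn encodes destrin, or ADF, which like cofilin cuts and disassembles filaments. It measured 757, 947, 1204, 753 and 467 CPM at P7, against 265, 282, 251, 284 and 254 CPM in adults. The adult libraries lay close together, while P7 C was the highest and P7 I the lowest of its group. Dstn was 3.09-fold higher at P7 (1.63 ± 0.20, adjusted p = 5.63e-05). Its paralogue Cfl1, which encodes the main non-muscle cofilin and is not one of the 46, averaged 2682 ± 321 CPM at P7 and, in adults, 1919 ± 258 CPM (SD). Cfl1 also rose (0.48 ± 0.13, adjusted p = 0.012). The log2 ratio of Dstn to Cfl1 went from -2.84 in adults to -1.76 at P7, a difference of 1.08 ± 0.24 (exact permutation p = 0.00794, the smallest that 5 against 5 libraries allow, adjusted 0.0215).

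Cotl1, coactosin-like 1, binds filaments and had the largest fold change of the 46. It measured 38.4, 59.6, 38.9, 48.0 and 31.4 CPM at P7, against 9.12, 8.04, 5.85, 10.3 and 12.8 CPM in adults. The lowest P7 library lay above the highest adult one, and the means differed 4.69-fold (2.23 ± 0.24, adjusted p = 2.01e-05). Wdr1, whose product AIP1 speeds disassembly by cofilin, measured 685, 729, 970, 693 and 424 CPM at P7, against 590, 447, 428, 313 and 320 CPM in adults. P7 I lay inside the adult range. Wdr1 passed (0.74 ± 0.21, adjusted p = 0.0188) but not without P7 C or adult G (adjusted p up to 0.058), nor with the GC trend removed (0.48). Cap1, which recharges actin monomers, averaged 1837 ± 154 CPM at P7 and, in adults, 1405 ± 443 CPM (SD) and did not pass (0.39 ± 0.19).

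**Figure D3:**
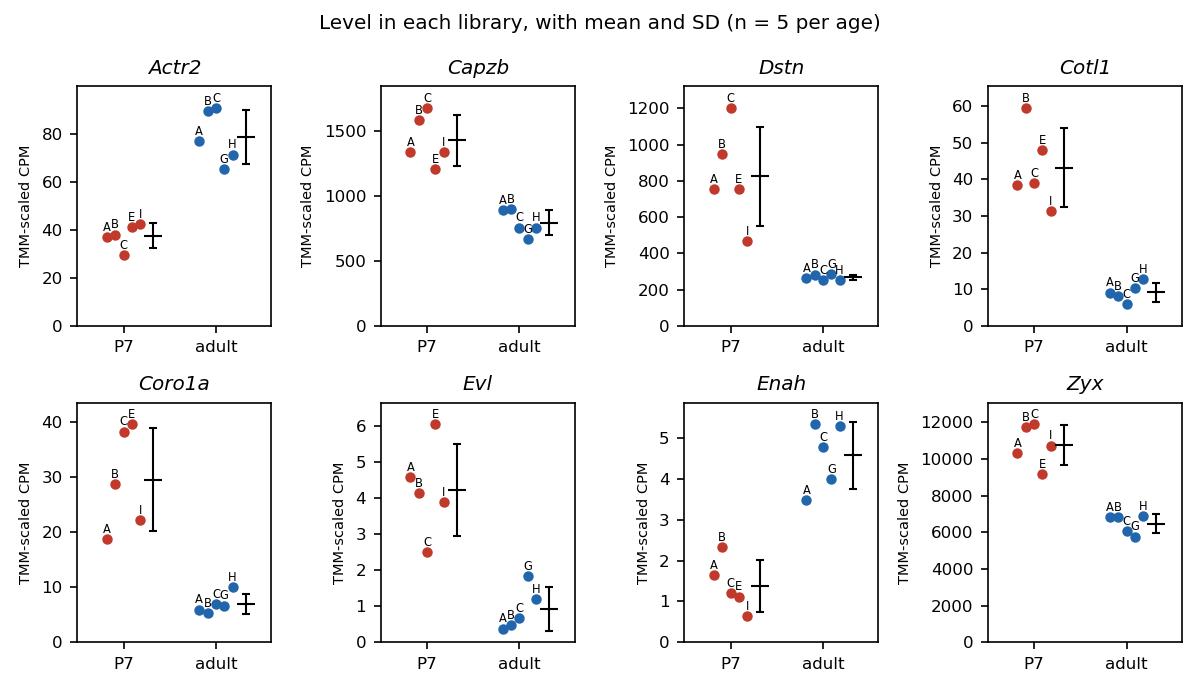
TMM-scaled CPM in each library (letters name the libraries, black marks are mean and SD, n = 5 per age) for the 8 genes whose call held under each setting in which they were tested. Actr2 and Enah lie lower at P7 and the other 6 higher, and in none of the 8 do the ages overlap.

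Coronins, which guide Arp2/3 and cofilin on filaments, had 1 of 3 genes called. Coro1a, the coronin of blood cells, measured 18.7, 28.7, 38.3, 39.6 and 22.2 CPM at P7, against 5.97, 5.37, 6.92, 6.68 and 10.04 CPM in adults. All P7 libraries lay above all adult ones, by 4.22-fold on the means (2.08 ± 0.25, adjusted p = 5.06e-05). Coro1b measured 85.7, 97.9, 105, 77.4 and 71.6 CPM at P7, against 100, 90.6, 73.2, 63.8 and 67.9 CPM in adults. Coro1c measured 147, 117, 106, 121 and 57.8 CPM at P7, against 159, 127, 96.7, 162 and 106 CPM in adults. Neither passed, with fold changes of 0.14 ± 0.17 and -0.25 ± 0.23. The ratio of Coro1a to Coro1b differed by 1.89 ± 0.32 and that of Coro1a to Coro1c by 2.32 ± 0.39 (adjusted permutation p = 0.0215 for both). The ratio of Coro1b to Coro1c did not pass (0.43 ± 0.26, adjusted permutation p = 0.209).

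Ena/VASP proteins lengthen filaments at their growing ends, and their 3 genes went separate ways, with Evl higher, Enah lower and Vasp not called. Vasp measured 113, 120, 133, 115 and 88.7 CPM at P7, against 130, 120, 106, 99.9 and 120 CPM in adults (-0.01 ± 0.15, adjusted p = 0.961). With the GC trend removed Vasp passed as lower (-0.45, adjusted p = 0.035). Evl measured 4.59, 4.13, 2.49, 6.04 and 3.88 CPM at P7, against 0.382, 0.473, 0.682, 1.84 and 1.20 CPM in adults. Enah measured 1.65, 2.32, 1.21, 1.12 and 0.639 CPM at P7, against 3.48, 5.33, 4.78, 3.98 and 5.28 CPM in adults. Neither gene's groups overlapped. Both are scarce, and their lowest raw counts in a library were 8 for Evl and 14 for Enah. Evl was 4.59-fold higher at P7 (2.20 ± 0.42, adjusted p = 0.00138) and Enah 3.29-fold higher in adults (-1.72 ± 0.32, adjusted p = 0.00134).

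The ratio of Evl to Enah within a library had the largest shift of the 19 paralogue pairs. Both genes were already called from the same counts, so the ratio restates these calls and is no separate evidence. On the log2 scale it was 1.46, 0.82, 1.04, 2.41 and 2.56 at P7 and -3.11, -3.44, -2.76, -1.10 and -2.11 in adults. Counts of Evl, not adjusted for length, thus exceeded those of Enah in every P7 library and were below them in every adult library. Per kilobase of exon, Evl held 1.57 CPM at P7 and 0.340 in adults, beside 0.111 and 0.364 for Enah. The adult group means per length were thus close. Evl ran from 0.382 CPM in adult A to 1.84 CPM in adult G, so this does not hold for each adult library. The difference between ages in the log2 ratio was 4.16 ± 0.54 (exact permutation p = 0.00794, adjusted 0.0215). The ratio of Vasp to Enah rose by 1.79 ± 0.29 and that of Vasp to Evl fell by 2.37 ± 0.53 on the log2 scale at P7 (adjusted permutation p = 0.0215 for both).

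**Figure D4:**
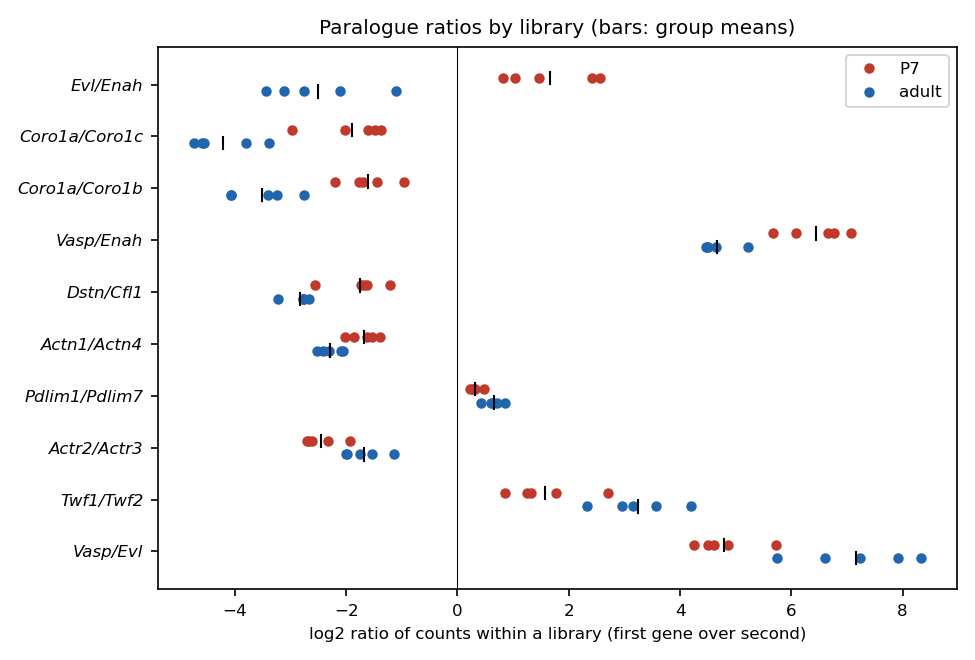
Log2 ratio of the counts of 2 paralogues within each library (points, bars are group means) for the 10 of 19 pairs with an adjusted exact permutation p under 0.05. The Evl to Enah ratio lies above 0 in every P7 library and below 0 in every adult one.

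Of the crosslinkers, 1 of 5 was higher, Lcp1, and none lower. Lcp1 encodes L-plastin, the filament bundler of leukocytes. It measured 7.12, 9.35, 11.4, 13.01 and 9.68 CPM at P7, against 3.15, 6.75, 5.17, 6.68 and 7.46 CPM in adults, where adult H exceeded P7 A. The log2 fold change was 0.79 ± 0.25 (adjusted p = 0.0305), and the call was lost without P7 C or E or adult A or C (adjusted p up to 0.0919). Pls3, the plastin of other tissues, measured 0.604, 0.930, 1.21, 0.600 and 0.822 CPM at P7, against 0.620, 0.0859, 0.829, 1.46 and 1.72 CPM in adults. It did not pass (-0.17 ± 0.57), and its sign changed with the library left out. The ratio of the plastins did not pass either (0.56 ± 0.77, adjusted permutation p = 0.641), but did without adult B (1.29, adjusted permutation p = 0.0302), where Pls3 is under the limit that a count of 0 allows.

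Flna encodes filamin A, which links filaments to the von Willebrand factor receptor. It measured 3972, 1913, 2879, 2241 and 955 CPM at P7, against 1125, 1183, 2311, 1033 and 996 CPM in adults. P7 I was lower than any adult library and adult C was inside the P7 range, and Flna did not pass (0.85 ± 0.35, adjusted p = 0.0988). Actn1 and Actn4 encode alpha-actinins, and neither passed alone (0.34 ± 0.18 and -0.24 ± 0.18). Their log2 ratio was -2.02, -1.40, -1.86, -1.53 and -1.62 at P7 and -2.30, -2.06, -2.53, -2.42 and -2.10 in adults, without overlap. It differed by 0.59 ± 0.14 (exact permutation p = 0.00794, adjusted 0.0215). Actn4 passed as lower after removal of the GC trend (-0.59, adjusted p = 0.019).

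ERM proteins tie filaments to the plasma membrane, and none of the 3 genes passed, although all had positive values. Msn, which encodes moesin, averaged 489 ± 75.7 CPM at P7 and, in adults, 341 ± 105 CPM (SD), with a log2 fold change of 0.52 ± 0.19 (adjusted p = 0.0533). Ezr and Rdx lay under 10 CPM in each library, with values of 0.89 ± 0.37 and 0.48 ± 0.43. No ratio among the 3 passed.

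In focal adhesions, 2 of 8 genes were higher (Zyx and Vcl) and 2 lower (Lims1 and Lasp1), with a median of 0.15. Zyx encodes zyxin, which brings Ena/VASP proteins to strained filaments, and held the highest level of the 46 per kilobase of exon, 2708 CPM per kb at P7 and 1630 in adults. It measured 10324, 11721, 11894, 9174 and 10732 CPM at P7, against 6813, 6839, 6080, 5775 and 6907 CPM in adults. The groups were far apart compared with their spread, and the means differed 1.66-fold (0.73 ± 0.11, adjusted p = 0.00035). Removal of the GC trend left 0.35, which still passed (adjusted p = 0.0457). The 46 genes together took 2.73% to 3.61% of the counts in P7 libraries and 2.16% to 2.69% in adult libraries.

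Vcl encodes vinculin, which joins talin to actin. It measured 457, 424, 624, 486 and 145 CPM at P7, against 231, 207, 304, 149 and 200 CPM in adults. P7 I lay below all adult libraries and the other 4 P7 libraries lay above them. Vcl passed (0.97 ± 0.30, adjusted p = 0.03), but not without P7 A, B, C or E or adult A, B, G or H (adjusted p up to 0.0826). Ap3m1, on the opposite strand, shares 2090 of the 5267 annotated exon bases of Vcl, and it was lower at P7 (-1.63, adjusted p = 0.000629).

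Ilk, Lims1 and Parvb encode partners of 1 complex, in which integrin-linked kinase binds PINCH1 and a parvin. Lims1, for PINCH1, measured 1083, 1079, 1100, 920 and 1069 CPM at P7, against 1834, 1533, 1415, 1408 and 1400 CPM in adults. The P7 libraries were below all adult ones, and the level was 1.45-fold higher in adults (-0.53 ± 0.12, adjusted p = 0.00461). With the GC trend removed the value was -0.25 ± 0.13 and the call was lost (adjusted p = 0.165). Parvb averaged 1026 ± 112 CPM at P7 and, in adults, 992 ± 163 CPM (SD, 0.05 ± 0.14), and Ilk 4.45 ± 1.33 and 3.34 ± 0.845 CPM (0.41 ± 0.27), and neither passed. Per kilobase of exon, Ilk held 2.37 CPM at P7, against 1.78 in adults, beside 224 and 323 for Lims1 and 271 and 262 for Parvb. Of the 1877 annotated exon bases of Ilk, 1533 are shared with Taf10 on the opposite strand and 319 with Rrp8, so its low level is uncertain.

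Lasp1, a zyxin partner with LIM and SH3 domains, measured 55.2, 49.0, 47.4, 58.8 and 39.2 CPM at P7, against 64.6, 73.5, 66.1, 70.5 and 68.0 CPM in adults. It was lower in every P7 library (-0.46 ± 0.15, adjusted p = 0.032), and the call was lost without P7 B, C or I or adult B or G (adjusted p up to 0.0669). The LIM proteins Pdlim1 and Pdlim7 did not pass alone (-0.08 ± 0.12 and 0.26 ± 0.12). The ratio of Pdlim1 to Pdlim7 differed by -0.34 ± 0.08 (exact permutation p = 0.0159, adjusted 0.0335), which was lost without P7 A, B or C or adult C (adjusted p up to 0.0565).

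Across the 37 genes whose mean reached 20 CPM, the median coefficient of variation was 15.5% at P7 and 16.8% in adults. P7 C was the highest P7 library for 20 of these genes, and P7 I the lowest for 18. In adults, G was the lowest for 14 genes and H for 12. Without P7 C, 8 of the 46 genes were higher at P7, in place of 13, and without adult B, 3 were lower in place of 6. Over all tested genes, 879 of 8455 were higher without P7 C, in place of 1132 of 8198. Without adult B, 2024 of 8596 were called, 987 of them higher.

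**Figure D5:**
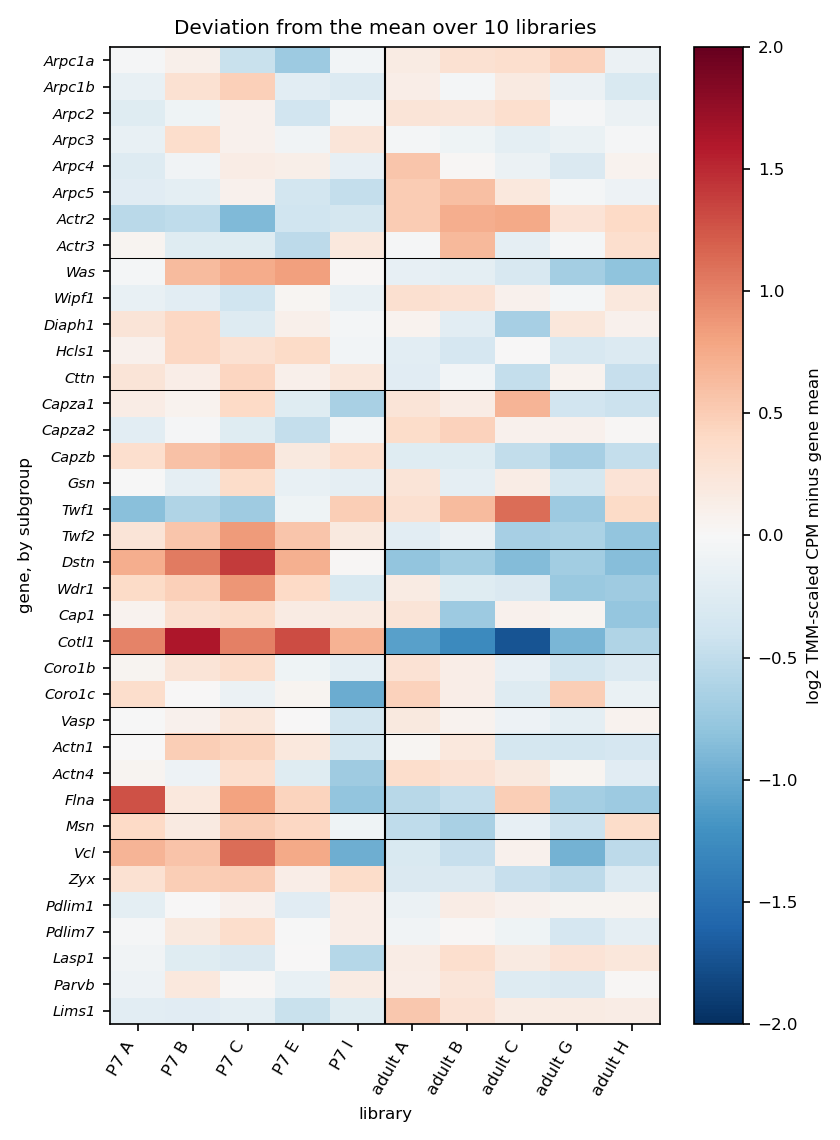
Log2 TMM-scaled CPM of the 37 genes whose mean reached 20 CPM in each library, minus the gene's mean over the 10 libraries, with lines between subgroups. P7 C holds the highest P7 value for 20 genes and P7 I the lowest for 18.

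Was, Hcls1, Coro1a, Lcp1, Cotl1 and Evl, all called higher at P7, are known to be abundant in leukocytes. The markers of leukocytes were therefore set beside these genes. Only genes called higher are named here, so the choice does not show that leukocyte-abundant genes rose as a set. Of 17 neutrophil markers, 15 had a count in any library, with summed levels of 4.10 to 8.40 CPM at P7, against 1.62 to 2.06 CPM in adults. Cxcr2 and Ly6g were at 0 in all libraries, and of the 2 neutrophil markers tested Prtn3 was higher at P7 (1.85, adjusted p = 0.00469). Each of the 18 lymphocyte markers had a count, with sums of 14.7 to 30.5 CPM at P7, against 14.8 to 24.96 CPM in adults. Of the 6 lymphocyte markers tested, Ighm was higher at P7 without overlap (1.47, adjusted p = 0.00353), and Nkg7 was lower (-1.38, adjusted p = 0.00465). The 14 monocyte markers summed to 2643 to 5631 CPM at P7, against 4157 to 9722 CPM in adults. These sums rest on Lyz2 and F13a1 and are no measure of monocytes. Each other monocyte marker averaged at most 1.80 CPM at P7 (Fcgr1) and 1.95 CPM in adults (Mpeg1). Lyz2 was the 1 of 6 tested that was lower (-0.66, adjusted p = 0.0142). The 10 pan-leukocyte markers summed to 1842 to 3425 CPM at P7, against 2217 to 3739 CPM in adults, mostly from Laptm5 and Itgb2, and 2 of the 8 tested were higher at P7 (Cd37 and Ptpn6). Erythroid markers, 21 in all, summed to 1473 to 3110 CPM at P7, against 944 to 2340 CPM in adults, with 5 of 17 tested higher. The part of these cells in the results was not tested.

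Other genes of the same pathways, from lists of related genes, were tested in the same fit. Of 49 other genes of actin assembly and turnover, 40 were tested, 11 were higher and 4 lower at P7 (37.5%), with a median of 0.34. Of all tested genes 27.7% were called, 13.8% higher and 13.9% lower. Abundant genes were called more often and abundance was not matched, so the share does not show more calls in this list. Capg, a capping protein of the gelsolin family, averaged 9.78 ± 2.27 CPM at P7 and, in adults, 2.52 ± 0.735 CPM (SD, 1.95 ± 0.26, adjusted p = 0.00013). Gmfg, which takes branches apart, also rose (2.08 ± 0.38, adjusted p = 0.000996). Abi1, of the WAVE complex that activates Arp2/3, averaged 41.1 ± 8.78 and 89.6 ± 19.3 CPM and was lower at P7 (-1.12 ± 0.19, adjusted p = 0.00065). Cfl2, the muscle cofilin, was lower too (-1.14 ± 0.21, adjusted p = 0.00129), so the cofilin family genes Dstn and Cfl1 were higher and Cfl2 lower. These are values of the main fit. Transcript GC content is 36.9% for Cfl2 and 41.0% for Abi1, and their values with the GC trend removed are not given here.

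Of 41 other crosslinking and focal adhesion genes, 30 were tested, 3 were higher and 2 lower (16.7%, beside 27.7% of all tested genes), with a median of 0.22. Cnn2, which encodes the actin-binding protein calponin 2, averaged 8415 ± 997 CPM at P7 and, in adults, 5775 ± 578 CPM (SD, 0.54 ± 0.12, adjusted p = 0.00388). Rsu1, whose product binds PINCH1, averaged 1434 ± 240 and 918 ± 215 CPM and was higher at P7 (0.64 ± 0.17, adjusted p = 0.0104), while Lims1 was lower. Fyb, an adaptor that binds Ena/VASP proteins, rose (0.45 ± 0.12, adjusted p = 0.0131). Tns3, a tensin of adhesions, was lower (-1.56 ± 0.29, adjusted p = 0.00123).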

How the data were processed

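RNA from platelets of P7 and adult mice was made into cDNA by SMARTer amplification from 1 ng of RNA and sequenced as 75 nt single-end reads, per the labels' protocols. The deposited values are raw counts per gene symbol, which the authors left unnormalized. The tools named are STAR 2.7.9a, Salmon 1.5.2, fastp 0.23.1 and Subread 2.0.1, per the submitters' processing notes, which state no role for any of them. Genome build and strand setting: not given in the sources used here.

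Counts were filtered with filterByExpr (minimum count 10, minimum total 15), scaled with TMM and tested with edgeR 4.0.16 (robust quasi-likelihood test, limma 3.58.1, R 4.3.3), with age as the only term and Benjamini-Hochberg adjustment over 8198 genes. Ratios of paralogues used raw counts with 0.5 added and exact permutation (two-sided) of the libraries between ages, adjusted over 19 pairs. They rest on the same counts as the calls of single genes, and some pairs share a gene, so they are not independent results. The edgeR test was first run on simulated counts, and the permutation test was not. Exon lengths, overlaps and GC content came from GENCODE M21 (GC of the longest transcript) and promoters from RefSeq (GRCm38.p6). Without molecular identifiers, the limits given for counts of 0 cover counting error alone.

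The genes, subgroups, paralogue pairs and lists were chosen with earlier results of these data known. By rule, called genes and their paralogues are given by library, other genes by group, and each list of related genes by up to 4 called genes with the smallest p. Flna was given by library after its values were seen. Alternatives were RLE, library size and upper-quartile scaling, DESeq2 1.42.0, limma-voom, other filters, a GC trend offset, a replicate block and leaving out each library.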

Additional observations from a re-analysis of the deposited data

Results flagged for a closer look

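In 92 groups of 5 libraries (46 genes at 2 ages), 3 held a library whose gap to the nearest other one exceeded Dixon's critical value of 0.71 of the range, and chance gives about 1 in 20 groups. Gsn in P7 C, at 3748 CPM, lay above the other P7 libraries (2555 to 2895 CPM). Flna in adult C, at 2311 CPM, lay above the other adult libraries (996 to 1183 CPM). Lims1 in P7 E, at 920 CPM, lay below the other P7 libraries (1069 to 1100 CPM).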

How the results depend on the processing

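Of 46 genes, 13 were higher and 6 lower at P7. With each library left out in turn, 8 to 15 were higher and 3 to 7 lower. Library size and upper-quartile scaling gave 3 lower each. At a threshold of 2-fold, 4 were higher and 2 lower, and the other pathway genes higher at P7 numbered 5 in place of 14. The letters A to C occur at both ages, but libraries with the same letter did not deviate together (correlations of -0.04, 0.06 and 0.007), and 1 of 6 correlated best with its own letter. The replicate block over these 6 libraries gave 8 higher and 4 lower genes, beside 10 and 6 in the same libraries without it, and 0 of 19 paralogue ratios, since 3 pairs cannot give a p under 0.25. Leaving out libraries gave 7 to 11 ratios in place of 10. Each alternative was run for the called genes and their paralogues. Among them Capza2 (0.010), Capza1 (0.058) and Coro1b (-0.26) changed sign with the GC trend removed, and the cause was not tested. Of the other genes, Arpc1b (-0.16), Diaph1 (-0.034), Pdlim1 (0.11), Pdlim7 (-0.17) and Parvb (-0.29) also changed sign there, and none of these 8 was called with the trend removed. Vasp turned to 0.057 with library size, 0.049 with upper-quartile scaling, 0.046 at a mean of at least 10 CPM, and 0.014 and 0.0099 over letters A to C with and without the replicate block. Pls3 turned to 0.34 with limma-voom and to 1.03 and 0.81 over letters A to C with and without the replicate block. Leaving out libraries gave -0.26 to 0.048 for Capza1, -0.49 to 0.14 for Pls3 and -0.088 to 0.059 for Vasp. Among ratios, the replicate block gave -0.28 for Lcp1 to Pls3, -0.14 for Ezr to Rdx and -0.073 for Hcls1 to Cttn. Leaving out libraries gave -0.43 to 0.60 for Ezr to Rdx, -0.57 to 0.24 for Msn to Rdx and -0.097 to 0.12 for Hcls1 to Cttn. Low counts limit Pls3, Ezr, Rdx, Evl and Enah most.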
